A study of Homo sapiens with 6 samples.

Results

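The 54 genes described here are those of the G2/M set that is widely used to score single cells for the phase between DNA replication and cell division. They were taken by symbol from the deposited table of 33539 genes, with no measured value in the rule, and 54 of the 54 were found. The RNA came from 8505C, a cell line derived from an anaplastic carcinoma of the thyroid, a tumour type that has lost most thyroid functions. Cells were treated for 24 h with an siRNA that silences POLR1F (siPOLR1F, 3 libraries) or with a control siRNA (NC, 3 libraries). POLR1F belongs to RNA polymerase I, which makes ribosomal RNA, and the study asked which genes act downstream of it. All cells are of 1 line with a transient knockdown, all libraries carry the same batch label, and the sources used here give neither the sequence nor the number of siRNAs. Nothing in the labels tells if replicate libraries stem from separate cultures. The p-values therefore weigh group differences only against the spread of these libraries, and that spread may be technical.

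A cell enters mitosis when the kinase CDK1, bound to a B-type cyclin and a small CKS cofactor, is freed of inhibitory phosphates by CDC25 phosphatases. Aurora kinases and spindle motors then build the spindle, kinetochores attach the chromosomes to it, and the spindle checkpoint holds back the anaphase-promoting complex until every chromosome is attached. Many of the genes for these proteins are transcribed late in the cycle: the MuvB core of the DREAM and MYBL2-FOXM1 complexes binds a promoter element with the letters TTTGAA, and the factor NF-Y binds CCAAT boxes beside it. In a cancer cell line these transcripts mark dividing cells. In bulk RNA a smaller share of cells in G2 or mitosis and less of these transcripts per cell cannot be told apart.

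The promoters of 45 of the 54 genes were in the RefSeq table (GRCh38.p14, 250 bases before to 50 after the start), and most held these elements. TTTGAA was found on either strand in 33 of the 45 (73.3%), against 13.3% of the 9623 tested genes with an entry. CCAAT was found on either strand in 32 of the 45 (71.1%), against 43.6%. Both were present in 26 (57.8%), against 7.35%. Matches to the 2 motifs can share at most 1 base, and each motif was searched alone. All 8 of the genes that fell after POLR1F silencing and had an entry held TTTGAA, and 7 of the 8 also held CCAAT, with ANLN as the exception. TTTGAA was also found in 24 of the 35 genes with an entry that did not pass the test (68.6%). Of the genes that rose, CTCF held TTTGAA and TACC3 held neither element. The stretches below run from 130 bases before to 20 bases after the start, 5′ to 3′ in the gene's direction, with TTTGAA and CCAAT matches on either strand (TTCAAA and ATTGG read on the opposite strand) in capitals. They show 4 genes that fell and hold both elements, ANLN with TTTGAA alone, and TACC3, which rose, with neither.
CDK1 (chr10:60778348-60778497, plus strand): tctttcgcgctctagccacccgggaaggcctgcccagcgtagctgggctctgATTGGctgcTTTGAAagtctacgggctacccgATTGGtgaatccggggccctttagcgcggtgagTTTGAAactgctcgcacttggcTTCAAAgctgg
CKS2 (chr9:89311065-89311214, plus strand): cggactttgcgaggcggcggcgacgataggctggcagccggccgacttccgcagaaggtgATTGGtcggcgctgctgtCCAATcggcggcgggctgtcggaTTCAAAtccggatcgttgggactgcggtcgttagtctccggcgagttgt
DLGAP5 (chr14:55191566-55191715, minus strand): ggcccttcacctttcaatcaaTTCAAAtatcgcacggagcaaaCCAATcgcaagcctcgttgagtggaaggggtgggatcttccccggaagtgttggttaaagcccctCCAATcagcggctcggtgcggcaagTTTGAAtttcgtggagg
KIF23 (chr15:69414219-69414368, plus strand): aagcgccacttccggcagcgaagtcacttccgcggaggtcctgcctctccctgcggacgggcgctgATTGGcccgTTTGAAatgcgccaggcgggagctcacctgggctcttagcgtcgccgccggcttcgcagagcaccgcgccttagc
ANLN (chr7:36389732-36389881, plus strand): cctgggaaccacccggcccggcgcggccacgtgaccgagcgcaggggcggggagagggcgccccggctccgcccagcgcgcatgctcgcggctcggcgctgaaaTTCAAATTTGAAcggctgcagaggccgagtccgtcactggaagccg
TACC3 (chr4:1720501-1720650, plus strand): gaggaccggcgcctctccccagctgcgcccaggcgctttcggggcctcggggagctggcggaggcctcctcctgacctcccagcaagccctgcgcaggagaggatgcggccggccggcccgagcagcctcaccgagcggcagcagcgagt
In CDK1, which has 2 annotated starts of which the one with more matches is shown, the stretch holds 3 TTTGAA and 2 CCAAT matches. In ANLN the 2 TTTGAA matches lie side by side, beginning 26 and 20 bases before the start. These matches describe the letters in this window and are not evidence of binding in these cells.

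POLR1F (ENSG00000105849, GRCh38 chr7:19695461-19709037, minus strand) had an FPKM (reads per gene scaled to its length and to the library's depth) of 8.80, 8.42 and 7.64 under NC and 2.09, 1.42 and 1.51 under siPOLR1F. It was lower in every siPOLR1F library, and fell by 2.30 on the log2 scale (SE 0.152, adjusted p = 9.76e-05). Total counts were alike, at 60576788 to 63038378 per library. Of the thyroid markers, NKX2-1 was at 41.8 to 47.2 FPKM in NC and 25.7 to 28.8 in siPOLR1F, PAX8 was at 0.218 to 0.777, and TG, TSHR and SLC5A5 were at or near 0 (at most 0.0256). Blood, fibroblast and endothelial markers were at most 1.37 FPKM, apart from CD68 (7.51 to 15.7) and CDH5 (5.43 to 5.88 in NC, 2.22 to 3.48 in siPOLR1F). The defining blood marker PTPRC was at or near 0 in all 6 libraries, and the endothelial markers PECAM1 and VWF were at most 0.706. Of the epithelial markers, KRT8 was at 112, 114 and 125 FPKM in NC and 92.8, 103 and 98.0 in siPOLR1F, KRT18 was at 133 to 173 with overlapping groups, and EPCAM, KRT19 and CDH1 were at most 1.05. NKX2-1, CDH5 and KRT8 moved with the groups, and their part in the results was not tested.

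Most of the G2/M genes read lower after POLR1F silencing, by a small amount. Their share of all counts was 1.05%, 0.955% and 0.950% in NC and 0.872%, 0.883% and 0.858% in siPOLR1F. Every siPOLR1F library was therefore below every NC library, and the mean went from 0.984% ± 0.0538 (SD, n = 3) to 0.871% ± 0.0123 (SD, n = 3). Their FPKM summed to 2593 ± 34.4 (SD, n = 3) under NC and to 2320 ± 59.6 (SD, n = 3) under siPOLR1F, a difference of -10.5%. All 54 passed the filter of a mean FPKM of 0.5 over the 6 libraries. In the edgeR quasi-likelihood fit across 13564 genes, with a Benjamini-Hochberg adjusted p below 0.05 as the threshold, 10 of the 54 fell (18.5%), against 6.94% of all tested genes. Only 3 of the 54 rose (5.56%), against 10.3% of all tested genes, and 41 did not pass the test. The median log2 fold change of the 54 was -0.17, against -0.01 for all tested genes, and 46 of the 54 values were below 0. In 22 of the 54 every siPOLR1F library was below every NC library (18.3% of all tested genes), and in 3 every one was above (19.9%). An unadjusted p below 0.05 was found in 24 of the 54, and in 4469 of the 13564 tested genes. The plot of fold changes by role shows that the genes that fell are spread over the entry kinase, motors, spindle proteins, cytokinesis and chromosome structure. The counts by role below rest on 2 to 14 genes each, and are to be read against the 6.94% and 10.3% of all tested genes.

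**Figure D1:**
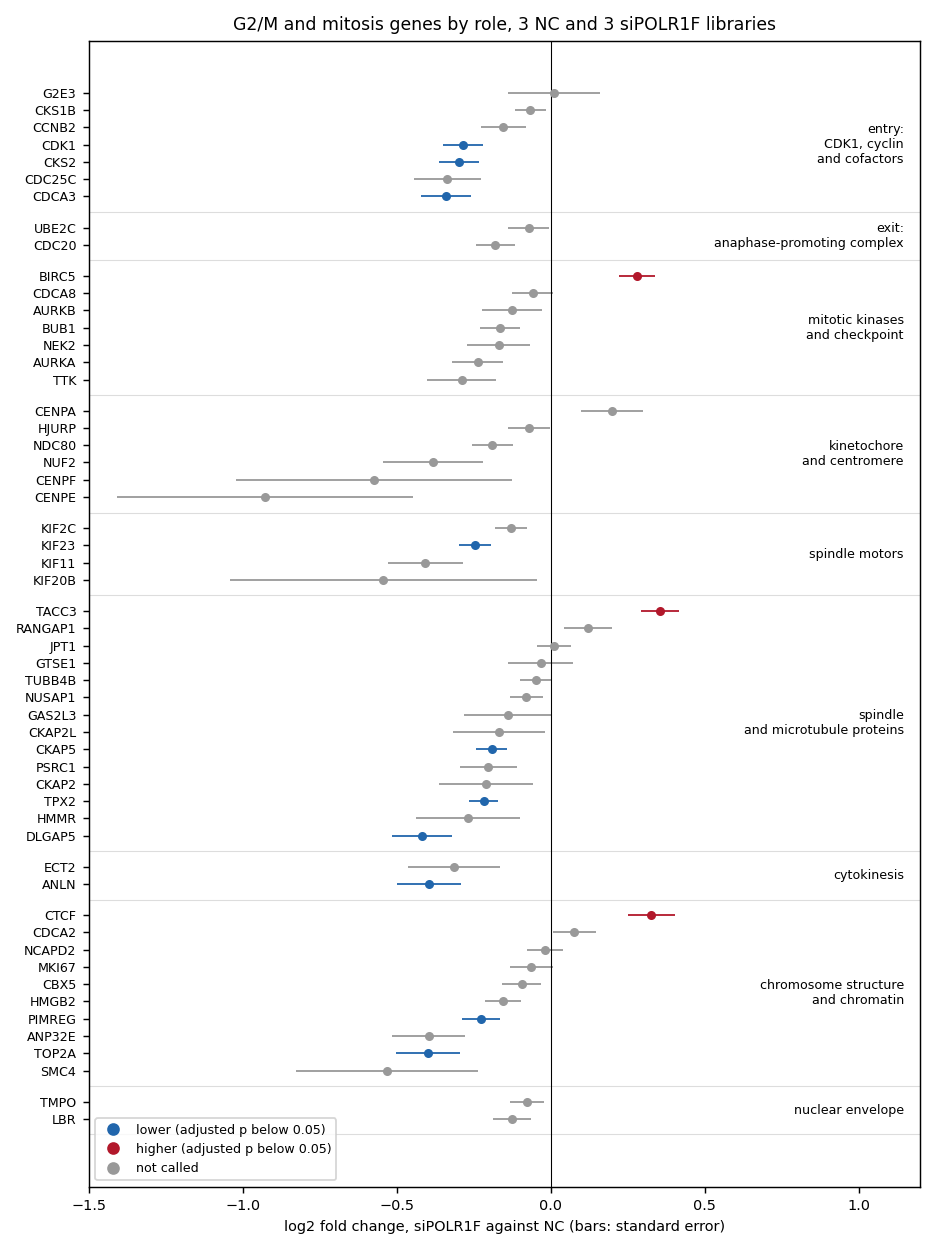
Log2 fold change of siPOLR1F against NC (x axis) for the 54 G2/M genes, grouped by role, with bars of 1 standard error (3 libraries per group). Blue marks the 10 genes that fell, red the 3 that rose and grey the 41 that did not pass the test; 46 of the 54 points lie below 0, and the widest bars belong to CENPE, KIF20B and CENPF.

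The 10 falling genes, and the others apart from them, were both lower in sum. The summed FPKM of the 10 was 674, 628 and 656 in NC and 523, 535 and 523 in siPOLR1F. That of the other 44, the 3 rising genes included, was 1952, 1929 and 1941 in NC and 1728, 1820 and 1831 in siPOLR1F. Neither sum overlapped between the groups. These 2 sums were split by the test itself and are a description.

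Of the 7 genes for mitotic entry, 3 fell and 4 did not pass the test. CDK1 (ENSG00000170312, chr10:60778331-60794828), the kinase that drives mitosis, was at 30.6, 26.7 and 28.6 FPKM in NC and 22.8, 24.1 and 23.3 in siPOLR1F. The groups did not overlap, and CDK1 fell by 0.29 on the log2 scale (SE 0.0646, adjusted p = 0.0196). CKS2 (ENSG00000123975, chr9:89311195-89316703), a small cofactor of CDK1 and the most abundant of the genes that passed the test, was at 196, 202 and 227 FPKM in NC and 164, 171 and 171 in siPOLR1F. By the fit to the counts CKS2 fell by 18.7% (log2 fold change -0.30, SE 0.0641, adjusted p = 0.0159), with no overlap. CDCA3 (ENSG00000111665, chr12:6844793-6851292, minus strand), a ubiquitin ligase adaptor that acts on the CDK1 inhibitor WEE1, was at 10.6, 10.8 and 11.1 FPKM in NC and 7.48, 9.16 and 8.88 in siPOLR1F. The lowest NC library lay above the highest siPOLR1F library, and the log2 fold change was -0.34 (SE 0.0819, adjusted p = 0.0245). The 2 CKS paralogs read differently: CKS1B was at 38.7, 39.4 and 40.8 FPKM in NC and 37.0, 37.5 and 38.5 in siPOLR1F, without overlap but with a log2 fold change of only -0.07 (adjusted p = 0.398). The difference between the paralogs was not tested. CDC25C, the phosphatase that activates CDK1, was just outside the threshold, at 12.7, 12.5 and 15.1 FPKM in NC and 9.08, 11.5 and 11.1 in siPOLR1F (log2 fold change -0.34, adjusted p = 0.0654). It passed as lower in 6 of the 18 alternatives, DESeq2 among them. The cyclin CCNB2 had a log2 fold change of -0.16 (adjusted p = 0.179), and the ubiquitin ligase G2E3 one of 0.01 (adjusted p = 0.971).

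The 2 genes of mitotic exit did not pass the test, nor did they with DESeq2 or limma on the same genes, and 1 of them had an unadjusted p below 0.05. CDC20, the activator of the anaphase-promoting complex, was at 200, 221 and 225 FPKM in NC and 174, 196 and 197 in siPOLR1F. The groups did not overlap, with a log2 fold change of -0.18 (SE 0.0641, adjusted p = 0.0880), and CDC20 passed the edgeR test in 6 of the 18 alternatives. UBE2C, the ubiquitin-conjugating enzyme of that complex, was at 121, 110 and 126 FPKM in NC and 105, 115 and 117 in siPOLR1F, with overlapping groups (log2 fold change -0.07, adjusted p = 0.494).

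Among the 7 mitotic kinases and checkpoint genes, 1 rose and 6 did not pass the test, of which DESeq2 called AURKA and TTK lower. BIRC5 (ENSG00000089685, chr17:78214186-78225636), which encodes survivin, the passenger complex subunit that is also known as an inhibitor of apoptosis, was at 26.5, 27.7 and 28.0 FPKM in NC and 30.9, 33.9 and 34.6 in siPOLR1F. Every siPOLR1F library was above every NC library, and BIRC5 rose by 0.28 (log2, SE 0.0579, adjusted p = 0.0139). Of the other subunits of the complex, INCENP, described below, also rose, while AURKB, its kinase, had a log2 fold change of -0.13 (adjusted p = 0.405) and CDCA8, borealin, one of -0.06 (adjusted p = 0.574), both with overlapping groups. AURKA, the kinase of the spindle poles, was at 64.8, 68.1 and 68.6 FPKM in NC and 48.7, 60.0 and 61.3 in siPOLR1F. Its groups did not overlap, but siPOLR1F replicate 1 lay well below the other two, and the adjusted p was 0.0817 (log2 fold change -0.24, SE 0.0824). The checkpoint kinases TTK and BUB1 and the centrosome kinase NEK2 had log2 fold changes of -0.29, -0.17 and -0.17, with adjusted p of 0.111, 0.114 and 0.287. TTK was lower in every siPOLR1F library than in any NC library, whereas the groups of BUB1 and NEK2 overlapped.

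The 6 kinetochore and centromere genes did not pass the edgeR test, although 2 had an unadjusted p below 0.05 and DESeq2 called 1, NUF2, lower. NDC80, whose product binds microtubules at the kinetochore, was at 21.7, 20.1 and 19.1 FPKM in NC and 17.3, 18.4 and 17.4 in siPOLR1F. The groups did not overlap (log2 fold change -0.19, SE 0.0674, adjusted p = 0.0880). Its partner NUF2 was at 18.8, 12.5 and 12.8 FPKM in NC and 12.7, 10.9 and 10.1 in siPOLR1F, with NC replicate 1 far above the rest (log2 fold change -0.38, SE 0.164, adjusted p = 0.142). CENPA, the histone variant that marks the centromere, had one of the 8 values above 0, at 0.20 (adjusted p = 0.213). Its chaperone HJURP had a log2 fold change of -0.07 (adjusted p = 0.513).

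Of the 4 spindle motors, 1 fell. KIF23 (ENSG00000137807, chr15:69414246-69448427), the centralspindlin motor that bundles midzone microtubules for cytokinesis, was at 27.8, 26.7 and 25.7 FPKM in NC and 22.9, 22.4 and 22.0 in siPOLR1F. Libraries within each group were close and the groups were well apart (log2 fold change -0.25, SE 0.0533, adjusted p = 0.0164). KIF11, the motor that separates the spindle poles, had the smallest adjusted p outside the threshold, at 0.0520. It passed as lower in 9 of the 18 alternatives, DESeq2 among them. It was at 21.6, 16.1 and 16.0 FPKM in NC and 14.4, 13.4 and 12.5 in siPOLR1F, without overlap and with a larger log2 fold change, -0.41 (SE 0.122), than KIF23. KIF2C, a microtubule depolymerase, was at 52.1, 50.5 and 53.8 FPKM in NC and 45.4, 48.8 and 48.2 in siPOLR1F (log2 fold change -0.13, adjusted p = 0.116). Its groups did not overlap either.

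Among the 14 spindle and microtubule genes, 3 fell and 1 rose. TPX2 (ENSG00000088325, chr20:31739271-31801805), which activates AURKA and seeds spindle microtubules, was at 129, 134 and 133 FPKM in NC and 107, 115 and 117 in siPOLR1F (log2 fold change -0.22, SE 0.0482, adjusted p = 0.0176). DLGAP5 (ENSG00000126787, chr14:55148112-55191585, minus strand), which stabilises spindle fibres near the chromosomes, was at 42.4, 33.3 and 33.2 FPKM in NC and 27.4, 27.1 and 26.7 in siPOLR1F. It had the largest fall of the 13 genes that passed the test, by 25.2% in the fit to the counts (log2 fold change -0.42, SE 0.0968, adjusted p = 0.0214). NC replicate 1 was its highest library. CKAP5 and TACC3, whose products work together as a microtubule-stabilising complex on spindle fibres, went opposite ways. CKAP5 (ENSG00000175216, chr11:46743048-46846308, minus strand) was at 37.3, 34.3 and 36.0 FPKM in NC and 31.4, 31.6 and 30.7 in siPOLR1F (log2 fold change -0.19, SE 0.0501, adjusted p = 0.0329). TACC3 (ENSG00000013810, chr4:1712858-1745171) was at 12.4, 13.5 and 13.1 FPKM in NC and 15.3, 17.3 and 17.0 in siPOLR1F. By the fit to the counts it rose by 27.8% (log2 fold change 0.35, SE 0.0618, adjusted p = 0.00732). The groups did not overlap for any of these 4 genes. TACC3 overlaps TMEM129 on the opposite strand (mean count 1457), and without a stated strand setting reads in the shared stretch cannot be told apart.

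The other spindle genes did not pass the test. TUBB4B, a beta-tubulin and the most abundant of the 54, was at 509, 561 and 550 FPKM in NC and 496, 518 and 543 in siPOLR1F (log2 fold change -0.05, adjusted p = 0.540). Its groups overlapped, and reads of near-identical tubulin genes could have been divided between them. Of the remaining 9, PSRC1 was lower without overlap (log2 fold change -0.20, adjusted p = 0.167), RANGAP1 and JPT1 had values above 0 (0.12 and 0.01), and HMMR, CKAP2, CKAP2L, GAS2L3, NUSAP1 and GTSE1 had values from -0.27 to -0.03 with overlapping groups.

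Of the 2 cytokinesis genes, ANLN fell. ANLN (ENSG00000011426, chr7:36389821-36453791), which encodes anillin, the scaffold of the contractile ring, was at 89.2, 71.1 and 68.3 FPKM in NC and 62.4, 56.0 and 54.5 in siPOLR1F. The groups did not overlap, and the log2 fold change was -0.40 (SE 0.105, adjusted p = 0.0346). ECT2, the exchange factor that activates RhoA at the division plane, was at 41.9, 32.3 and 28.4 FPKM in NC and 31.5, 26.5 and 24.1 in siPOLR1F. As in ANLN, replicate 1 was the highest library of each group, but the ECT2 groups overlapped (log2 fold change -0.31, SE 0.149, adjusted p = 0.182).

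Among the 10 genes of chromosome structure and chromatin, 2 fell and 1 rose. TOP2A (ENSG00000131747, chr17:40388525-40417896, minus strand), the topoisomerase that untangles sister chromatids, was at 95.4, 73.1 and 77.1 FPKM in NC and 64.5, 64.5 and 56.2 in siPOLR1F (log2 fold change -0.40, SE 0.104, adjusted p = 0.0319). PIMREG (ENSG00000129195, chr17:6444441-6451469), a nuclear protein that binds the clathrin adaptor PICALM, was at 16.0, 16.5 and 16.2 FPKM in NC and 13.6, 14.5 and 13.3 in siPOLR1F (log2 fold change -0.23, SE 0.0631, adjusted p = 0.0409). It lay just inside the threshold. CTCF (ENSG00000102974, chr16:67562467-67639176), the insulator protein that shapes chromatin loops and is not restricted to mitosis, was at 5.27, 6.03 and 5.37 FPKM in NC and 6.50, 6.90 and 7.41 in siPOLR1F, a rise by 0.33 on the log2 scale (SE 0.0751, adjusted p = 0.0208). None of these 3 overlapped between the groups. ANP32E, a chaperone that removes the histone variant H2A.Z, was just outside the threshold, at 36.2, 29.7 and 26.8 FPKM in NC and 25.9, 23.0 and 21.2 in siPOLR1F (log2 fold change -0.40, adjusted p = 0.0529). It passed as lower in 9 of the 18 alternatives, DESeq2 among them. HMGB2, a DNA-bending protein, was at 128, 116 and 122 FPKM in NC and 103, 114 and 110 in siPOLR1F (log2 fold change -0.16, adjusted p = 0.104). Both were lower in every siPOLR1F library. MKI67, the common marker of proliferating cells, was at 25.7, 24.0 and 22.2 FPKM in NC and 23.9, 23.1 and 21.5 in siPOLR1F, with overlapping groups (log2 fold change -0.06, SE 0.0689, adjusted p = 0.562). The condensin subunit NCAPD2, the heterochromatin protein CBX5 and the phosphatase anchor CDCA2 had log2 fold changes of -0.02, -0.09 and 0.08. Of the 2 nuclear envelope genes, LBR, the lamin B receptor, was lower without overlap (log2 fold change -0.13, adjusted p = 0.197) and TMPO overlapped (-0.08, adjusted p = 0.366).

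**Figure D2:**
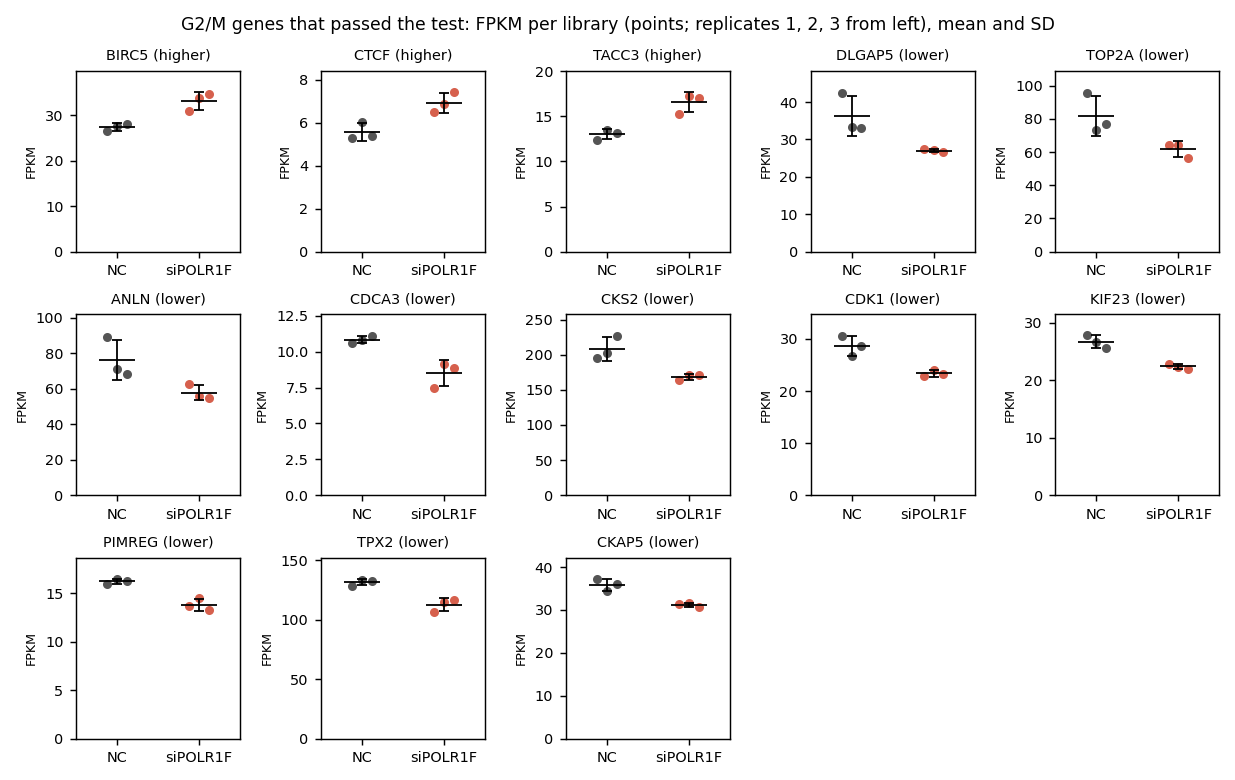
FPKM (y axis, from 0) in each library for the 13 G2/M genes that passed the test; points are libraries, with replicates 1 to 3 from left, and the horizontal line and bar are the mean and SD (n = 3). The siPOLR1F points lie above all NC points for BIRC5, CTCF and TACC3 and below all NC points for the other 10. By the log2 fold change fitted to the counts, the falls ran from 12.4% (CKAP5) to 25.2% (DLGAP5).

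The genes with the largest fold changes did not pass the test, and their libraries were far apart within each group. CENPE, the kinesin that carries chromosomes to the spindle equator, was at 3.18, 1.43 and 0.804 FPKM in NC and 1.44, 0.759 and 0.626 in siPOLR1F (log2 fold change -0.93, SE 0.481, adjusted p = 0.217). CENPF, a large kinetochore protein, was at 13.1, 5.29 and 3.96 FPKM in NC and 7.34, 4.57 and 3.05 in siPOLR1F (log2 fold change -0.57, adjusted p = 0.412). In both, replicate 1 was the highest library of its group and replicate 3 the lowest. KIF20B, a motor of late cytokinesis, was at 4.43, 1.82 and 1.13 FPKM in NC and 2.56, 1.53 and 0.945 in siPOLR1F (log2 fold change -0.54, adjusted p = 0.488). SMC4, a core subunit of condensin, was at 51.5, 26.3 and 23.0 FPKM in NC and 29.2, 22.2 and 18.0 in siPOLR1F (log2 fold change -0.53, adjusted p = 0.249). Without NC replicate 1 the log2 fold change was 0.12 in CENPF and 0.20 in KIF20B, the opposite sign, and without siPOLR1F replicate 1 it was -0.97 and -0.99. In all of these genes each siPOLR1F library was nevertheless below the NC library of the same number. With the replicate number added to the fit as a block, CENPE, CENPF and SMC4 fell and KIF20B did not pass the test. In that fit 8.29% of all genes fell, and the labels do not say if equal numbers pair libraries. In 11 of the 54 genes the NC libraries spanned more than 0.5 on the log2 CPM scale, against 15.8% of all tested genes. The 13 genes that passed the test were all among the others, but a wide span by itself makes it harder to pass.

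These genes had transcripts rich in adenine. In the longest coding transcript of GENCODE 29, the share of adenine ran from 19.4% (JPT1) to 41.4% (CENPE) over the 54 genes. Its median was 30.0%, against 26.0% in 11274 tested protein-coding genes. Across the 54 genes the share of adenine correlated with the difference between NC replicates 1 and 3 (r = 0.79, rho = 0.88) and with that between siPOLR1F replicates 1 and 3 (r = 0.76, rho = 0.79). In all protein-coding genes the same correlations were lower (r = 0.33, rho = 0.53 and r = 0.16, rho = 0.27). Across the 54 genes the share of adenine also correlated with the log2 fold change (r = -0.65, rho = -0.63), whereas across all protein-coding genes it hardly did (r = -0.03, rho = -0.05). These correlations are descriptions across genes, which share their libraries and are not independent. The falling genes had a median adenine share of 31.0% and the rising genes one of 25.2%. Corrections for transcript composition were chosen after the data were seen, with each library's trend fitted over all genes. With each library's trend on GC content removed, 16 of the 54 fell (9.59% of all genes fell) and 3 rose (12.4% of all genes rose). Of the 10 falling genes 9 were among the 16, and CDK1 was not (adjusted p = 0.0764). With the trend on adenine share removed instead, 18 fell (9.99% of all genes fell) and 3 rose (12.7% of all genes rose). All 10 falling genes were among the 18, CDK1 included (adjusted p = 0.0201). Because the adenine share followed the libraries less closely over all genes than over the 54, such a correction can leave much of the trend in place. With the adenine correction the log2 fold change went from -0.93 to -0.87 in CENPE and from -0.54 to -0.45 in KIF20B. The calls that were kept therefore cannot settle the part of composition in the fold changes.

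**Figure D3:**
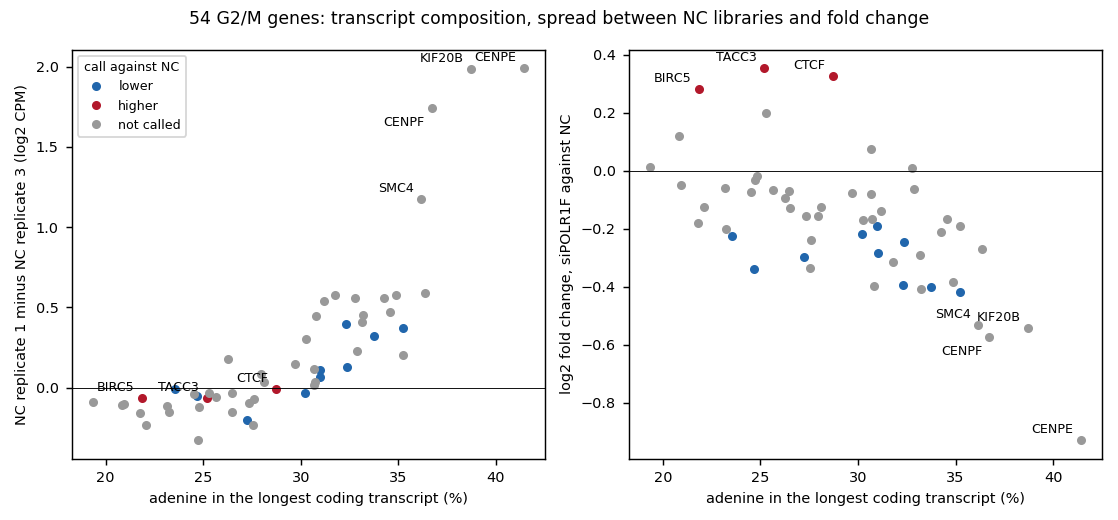
Left, the difference between NC replicates 1 and 3 (log2 CPM, y axis) and right, the log2 fold change of siPOLR1F against NC (y axis), each against the share of adenine in the longest coding transcript (x axis, %), with 1 point per gene. On the left the points climb above about 30% adenine, to 1.99 for CENPE; on the right the values sink from left to right (r = -0.65), with CENPE lowest at -0.93.

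**Figure D4:**
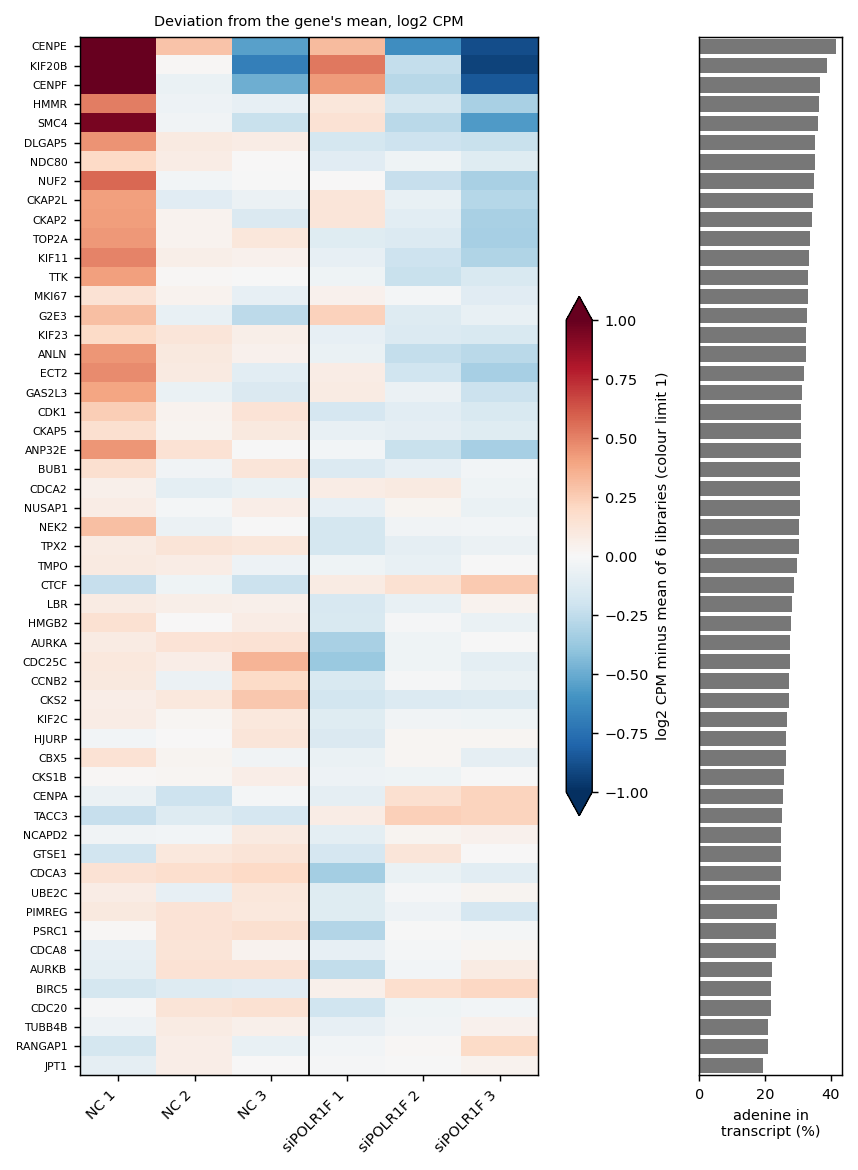
Deviation of each library from the gene's mean over 6 libraries (colour, log2 CPM, limited to 1 either way) for the 54 genes, ordered from the highest share of adenine at the top, with that share as bars (%). In the top rows NC replicate 1 stands far above the other libraries and siPOLR1F replicate 3 far below; further down the colours are paler, and TACC3, CTCF and BIRC5 turn from blue in NC to red in siPOLR1F.

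The calls rested on small differences, and most needed all 6 libraries. TACC3 passed the test with any 1 library left out (adjusted p at most 0.0361). The number of falling genes was 9 without NC replicate 1, 10 without NC replicate 2, 6 without NC replicate 3, 2 without siPOLR1F replicate 1, 1 without siPOLR1F replicate 2 and 1 without siPOLR1F replicate 3. CKAP5 and PIMREG lost their calls without NC replicate 1, CDCA3 and PIMREG without NC replicate 2, and CDCA3, CDK1, CKAP5, PIMREG and TOP2A without NC replicate 3. The 2 that passed without siPOLR1F replicate 1 were KIF23 and ANLN, the 1 without siPOLR1F replicate 2 was CDCA3 and the 1 without siPOLR1F replicate 3 was TPX2. BIRC5 lost its call without siPOLR1F replicates 2 or 3 (adjusted p at most 0.0588), and CTCF without NC replicates 1 or 3 or siPOLR1F replicates 2 or 3 (at most 0.0812). PIMREG lost its call with any 1 library left out (at most 0.142). Over all tested genes the share that fell was 5.22%, 6.20% and 3.97% without NC replicates 1, 2 and 3. It was 3.27%, 3.81% and 3.12% without siPOLR1F replicates 1, 2 and 3. In the fits without a siPOLR1F library, the 2, 1 and 1 of 54 that fell were thus near or below the share of all genes. The share of all genes that rose was between 5.38% and 9.78% in the 6 fits, with 1 to 3 of the 54 rising. No call of the 13 changed direction under any of the 18 alternatives.

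The regulators that turn G2/M genes on and off went both ways. Of 16 genes of the DREAM and MYBL2-FOXM1 complexes and NF-Y, 4 rose and 2 fell (background 10.3% higher and 6.94% lower). RBL1, the p107 pocket protein that represses with DREAM, was at 9.34, 8.73 and 8.10 FPKM in NC and 12.1, 11.0 and 11.1 in siPOLR1F (log2 fold change 0.39, adjusted p = 0.0114). LIN37, a MuvB core subunit, rose by 0.38 on the log2 scale (adjusted p = 0.0281). E2F5, a partner of the pocket proteins, was at 1.92, 1.90 and 2.03 FPKM in NC and 1.29, 1.42 and 1.42 in siPOLR1F (log2 fold change -0.49, adjusted p = 0.0137), and NFYB, a subunit of the CCAAT-binding factor, fell by 0.36 (adjusted p = 0.0273). None of these 4 overlapped between the groups. The activators were looked up after their values were seen: MYBL2 was at 68.2, 92.4 and 83.3 FPKM in NC and 99.4, 106 and 111 in siPOLR1F (log2 fold change 0.38, adjusted p = 0.0322), and FOXM1 was at 20.7, 23.9 and 22.1 and at 20.2, 21.1 and 22.8 (-0.05, adjusted p = 0.662). MYBL2 thus rose while FOXM1 did not pass the test and its groups overlapped.

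The wider mitotic machinery was mixed. Of 13 further genes of entry and exit, 1 rose and 1 fell, 7.69% each way, against 10.3% and 6.94% of all tested genes. CDC25A, the phosphatase that acts mainly at the G1/S transition, rose from 10.1 ± 2.28 (SD, n = 3) to 17.6 ± 1.52 FPKM (SD, n = 3), with a log2 fold change of 0.81 (adjusted p = 0.00881). CCNB1, the main mitotic cyclin, was at 146, 144 and 150 FPKM in NC and 112, 128 and 133 in siPOLR1F (log2 fold change -0.23, adjusted p = 0.0438). The cyclin and its kinase CDK1 were thus both lower in every siPOLR1F library. Of 17 genes of the anaphase-promoting complex, CDC23 fell, from 16.0 ± 0.467 (SD, n = 3) to 9.55 ± 0.669 FPKM (SD, n = 3), a log2 fold change of -0.74 (adjusted p = 0.000435) that exceeded those of all 13 G2/M genes that passed the test. The other 16 did not pass the test, so 5.88% fell, against 6.94% of all tested genes.

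Of 12 further genes of the spindle checkpoint and passenger complex, 3 rose (25.0%, against 10.3% of all tested genes) and 9 did not pass the test. ZW10, which recruits dynein and checkpoint proteins to kinetochores, was at 6.91, 6.09 and 6.54 FPKM in NC and 14.4, 12.5 and 14.6 in siPOLR1F (log2 fold change 1.10, adjusted p = 0.000263). MAD1L1, which loads MAD2 at unattached kinetochores, was at 4.83, 4.77 and 4.82 FPKM in NC and 7.25, 7.06 and 7.35 in siPOLR1F (log2 fold change 0.59, adjusted p = 0.000640). INCENP, the scaffold of the passenger complex to which BIRC5 belongs, rose by 0.26 (adjusted p = 0.0297). In all 3 every siPOLR1F library was above every NC library. Of 27 further kinetochore and centromere genes, 3 rose and 3 fell, 11.1% each way, close to the 10.3% and 6.94% of all tested genes. SPC24 and SPC25, the subunits that complete the NDC80 complex, had log2 fold changes of -0.46 and -0.31 (adjusted p = 0.00339 and 0.0220), and both were lower in every siPOLR1F library, as NDC80 was. CENPN and MIS12 rose by 0.33 and 0.39 (adjusted p = 0.0247 and 0.0284).

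Of 16 further kinesins and cytokinesis genes, 15 had values below 0, against 7126 of 13564 for all tested genes. Only 1 passed the test, and it fell (6.25%, against 6.94% of all tested genes). This was KIF20A, a motor of the spindle midzone, at 72.9, 67.8 and 77.1 FPKM in NC and 53.8, 62.1 and 61.2 in siPOLR1F (log2 fold change -0.29, adjusted p = 0.0235). Of 18 further condensin and cohesin genes, the cohesin subunit SMC1A rose by 0.28 (adjusted p = 0.00775) and the other 17 did not pass the test. The share that rose was 5.56%, against 10.3% of all tested genes. Of 34 genes of G1/S and replication, the preceding phases, 6 rose (17.6%, against 10.3% of all tested genes) and 28 did not pass the test. Of their values 29 were above 0, against 6438 of 13564 for all tested genes, and the median was 0.15, against -0.01. DTL and TIPIN had log2 fold changes of 0.44 and 0.70 (adjusted p = 0.00281 and 0.00354). MCM10, GINS3, UHRF1 and CDT1 also rose, nearer to the threshold (adjusted p = 0.0207, 0.0315, 0.0446 and 0.0477). The difference between the 2 lists was not tested. RBL1, E2F5, CDC25A, CDC23, ZW10, MAD1L1, SPC24, SMC1A, DTL and TIPIN passed with any 1 library left out. LIN37, NFYB, MYBL2, CCNB1, INCENP, SPC25, CENPN, MIS12 and KIF20A lost their calls in at least 1 of these fits (adjusted p at most 0.108). MCM10, GINS3, UHRF1 and CDT1 lost theirs as well (adjusted p at most 0.155), and CDT1 passed in none of these fits.

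Some genes overlap others, and reads in a shared stretch cannot be assigned without a strand setting. CDC25C overlaps FAM53C (mean count 8915), NCAPD2 overlaps MRPL51 (3947), SMC4 overlaps TRIM59 (3102) and ANLN overlaps KIAA0895 (543), all on opposite strands. CENPA overlaps SLC35F6 (2082) on the same strand.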

How the data were processed

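Poly(A) RNA of 3 NC and 3 siPOLR1F libraries of 8505C cells was sequenced in pairs, per the labels' protocols. The tools were fastp, HISAT2 and StringTie and the build GRCh38 (hg38), per the submitters' processing notes. Not given in the sources used here were their versions, the annotation and the strand setting. The authors deposited 1 table of 33539 genes that holds both read counts and FPKM, and gene names and coordinates were taken from it. The deposited counts were tested with edgeR 4.0.16 (TMM, quasi-likelihood, two-sided, R 4.3.3) in the 13564 genes whose mean FPKM reached 0.5, which held 99.4% of the counts (biological coefficient of variation 0.137). Benjamini-Hochberg adjustment ran over all tested genes, with a threshold of 0.05. The test was also run on simulated data, with independent genes and planted changes larger than those of the G2/M genes that passed the test. That run therefore cannot speak for calls of this size in these libraries.

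Genes and lists were chosen with earlier results of these data known. Values in every library were given for the G2/M genes that passed the test, the 6 most abundant, and the 3 with the smallest adjusted p outside the threshold. Other genes were described by role, with library values for some of them. Of each further list, up to 4 genes with the smallest adjusted p were named, and of G1/S and replication all 6 that rose. Alternatives were other scalings, DESeq2 1.42.0, limma 3.58.1 on log2(FPKM + 1) and log2(FPKM + 0.1), other filters, the replicate number as a block, and each library left out. Corrections for GC and adenine content (loess, span 0.5) were added after the data were seen. Promoters came from RefSeq (GRCh38.p14), with 9 of the 54 genes not in that table, and transcript composition from GENCODE 29.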

Additional observations from a re-analysis of the deposited data

How the results depend on the processing

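The scaling, limma and stricter filters left the numbers of falling and rising G2/M genes within 1.5 times of 10 and 3. Of 969 single values under 18 alternatives, 836 kept direction and side of the threshold, 55 lost a call, 59 gained one and 19 changed sign; the 13 genes that passed the test gave 179 kept and 55 lost of 234. Falling G2/M genes numbered 16 with DESeq2 (9.64% of all genes fell) and 16 with the GC correction (9.59%). They numbered 18 with the adenine correction (9.99%) and 21 with the replicate block and GC correction together (9.21%). The share of all genes that fell was thus also above the 6.94% of the main fit. With no filter on low values, 663 genes rose and 313 fell among all 33539, and of the G2/M genes 1 rose (TACC3) and 0 fell. In the filtered edgeR fit 24 of the 54 had an unadjusted p below 0.05, against 4469 of 13564 tested genes. With 1 library left out, falling G2/M genes numbered 1 to 10 and rising ones 1 to 3, and over all genes 423 to 841 fell and 730 to 1326 rose. The causes of these shifts were not tested. Same-numbered NC and siPOLR1F libraries deviated from their group means with correlations of 0.29, 0.016 and 0.27 over all tested genes. NC replicate 1 with siPOLR1F replicate 3, and NC replicate 3 with siPOLR1F replicate 1, both gave -0.28. These correlations cannot decide if equal numbers pair libraries, and the low value of replicate 2 does not speak against it. The labels do not say so, and the main fit did not take the numbers as pairs. Across the 54 G2/M genes, however, the difference between replicates 1 and 3 correlated between NC and siPOLR1F (r = 0.97, rho = 0.87). With the replicate number as a block 23 G2/M genes fell (8.29% of all genes fell), CENPE, CENPF and SMC4 among them. In that fit 3 rose (11.2% of all genes rose). Over all tested genes every library correlated best with its own number, a hint from the data and not the design.

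Sign changes were all in genes that did not pass the test. JPT1 read -0.00204 with library size alone, -0.00502 with a mean FPKM of at least 5, -0.0199 with the GC correction and -0.0194 with the replicate block and GC correction, and G2E3 read -0.00202 with library size alone. With 1 library left out, values ran from -0.034 to 0.050 in JPT1, -0.11 to 0.18 in G2E3, -0.97 to 0.12 in CENPF, -0.28 to 0.013 in CKAP2L, -0.99 to 0.20 in KIF20B, -0.24 to 0.043 in GAS2L3, -0.13 to 0.041 in GTSE1 and -0.044 to 0.025 in NCAPD2.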
